A study of Mus musculus with 13 samples.

Results

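Among 48890 fibroblasts from 5 stages of mouse mammary gland development, 4269 carried UMIs of at least 2 of the genes Pgr, Cxcl13 and Il1r2, and these cells, called members here, were described and compared with the remaining 44621 fibroblasts of the same libraries. A UMI is a barcode that marks 1 captured RNA molecule. A cell counted as a fibroblast when it had 500 to 7500 detected genes, at most 10% mitochondrial UMIs, at least 50 UMIs of Dcn, Lum and Col1a2 per 10000 UMIs, and no UMI of Epcam, Pecam1, Rgs5, Sox10, Ptprc or Myog, which mark epithelium, endothelium, pericytes, Schwann cells, leukocytes and muscle. The members were therefore chosen by the measured UMIs of Pgr, Cxcl13 and Il1r2, and the levels of these 3 genes are given below only as a description. The members were not a cluster, and they were a minority of the fibroblasts at every stage.

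The cells came from female C57BL/6 wildtype mice, with 2 females pooled in each library, and were sorted as the stromal fraction without lineage markers and without CD24 before droplet sequencing from the 3′ end of transcripts. There was 1 library each for puberty (4 weeks by the labels), adult virgin (9 weeks), pregnancy (day 14.5), lactation (day 10) and involution (day 4). The study's methods give a slightly older age for pubertal mice than the label. A further 4 libraries came from 9-week-old females given placebo (2 libraries) or medroxyprogesterone acetate, a synthetic progestin, with estradiol (MPA+E, 2 libraries), and the same rule was applied there. The stage libraries held 9250 to 14424 barcodes and 56551189 to 79865721 UMIs. With 1 library per stage, no difference between stages could be tested, and the 95% intervals given for single libraries cover counting error only. Members of different stage libraries shared 4 barcodes in pairs, which is 0.0937% of the members.

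Pgr encodes the progesterone receptor, a steroid-activated transcription factor that in the mammary gland is best known from luminal epithelial cells, where it drives branching and alveolar growth. CXCL13 is a chemokine that draws B cells through the receptor CXCR5 and is made by stromal cells of lymphoid tissue. IL1R2 is a decoy receptor that binds interleukin-1 without signalling, and CCN5, a matricellular protein of the CCN family, was the further marker proposed for these cells.

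The sequences just upstream of the genes that chose the members, and of Il31ra and Greb1, which were higher in them, are shown for reference. Of 8 genes looked up, 6 were matched to RefSeq promoters (build GRCm38.p6), and Ccn5 and Tgm2 are only named. Not shown are the windows of Ptpn5, of which it has 2 and which hold no match, and a second window of Greb1, which holds 2 matches of the estrogen receptor half-site. Each line gives the 250 bases before the RefSeq start, 5′ to 3′ on the gene's strand. Capitals mark the letters AGAACA or TGTTCT, the half-site shared by progesterone and glucocorticoid receptors on either strand, and GGTCA or TGACC, the half-site of estrogen receptors on either strand. No 2 matches overlapped in these windows. The windows lie at chr9:8899583-8899832 (plus strand, Pgr), chr5:95956689-95956938 (plus, Cxcl13), chr1:40085843-40086092 (plus, Il1r2), chr13:112580663-112580912 (minus, Il31ra) and chr12:16800887-16801136 (minus, Greb1).
Pgr: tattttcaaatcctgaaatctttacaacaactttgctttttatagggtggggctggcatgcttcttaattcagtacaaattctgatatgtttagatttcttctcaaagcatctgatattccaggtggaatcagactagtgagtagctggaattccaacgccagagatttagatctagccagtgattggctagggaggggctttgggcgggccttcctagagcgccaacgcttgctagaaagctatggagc
Cxcl13: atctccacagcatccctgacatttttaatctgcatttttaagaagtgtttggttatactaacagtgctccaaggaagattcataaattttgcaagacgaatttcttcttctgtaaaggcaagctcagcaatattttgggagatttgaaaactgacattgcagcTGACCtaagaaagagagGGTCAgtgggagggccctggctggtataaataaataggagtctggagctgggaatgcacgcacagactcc
Il1r2: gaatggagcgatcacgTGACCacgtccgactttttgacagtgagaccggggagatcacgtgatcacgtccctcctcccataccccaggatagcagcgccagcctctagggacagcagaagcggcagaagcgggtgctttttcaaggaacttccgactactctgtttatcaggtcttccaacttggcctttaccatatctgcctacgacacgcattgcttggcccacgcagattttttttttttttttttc
Il31ra: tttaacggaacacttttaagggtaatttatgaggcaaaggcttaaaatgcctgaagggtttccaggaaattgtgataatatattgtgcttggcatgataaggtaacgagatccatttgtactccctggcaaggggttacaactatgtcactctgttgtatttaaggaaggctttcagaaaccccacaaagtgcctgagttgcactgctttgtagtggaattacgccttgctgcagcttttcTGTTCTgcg
Greb1: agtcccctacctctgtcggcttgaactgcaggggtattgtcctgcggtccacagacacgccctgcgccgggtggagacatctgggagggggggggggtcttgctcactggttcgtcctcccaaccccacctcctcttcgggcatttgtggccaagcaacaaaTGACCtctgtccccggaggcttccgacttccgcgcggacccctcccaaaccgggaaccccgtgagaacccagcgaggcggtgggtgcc
The Cxcl13 window held the estrogen half-site letters at 87 and 70 bases before the start, the Il1r2 window at 234 bases and the Greb1 window at 88 bases, and the Il31ra window held the progesterone half-site letters at 9 bases. The Pgr window held neither. The AGAACA letters occur in 5284 of 32851 RefSeq promoter windows (16.1%) and the GGTCA letters in 11577 (35.2%), so single matches are common and describe the sequence only. The Pgr, Cxcl13 and Greb1 windows lie upstream of the gene spans of GENCODE M21, which are chr9:8899833-8968611, chr5:95956951-95961068 and chr12:16670615-16800886. The Il1r2 and Il31ra starts used by RefSeq lie inside the longer spans of their genes, which are chr1:40074079-40125231 for Il1r2 and chr13:112519898-112594360 for Il31ra.

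Members were found at every stage, and their share of the fibroblasts was highest in the adult and lowest in involution. They numbered 802 of 7121 fibroblasts in puberty (11.3%, 95% exact binomial interval 10.5 to 12%), 1446 of 11951 in the adult (12.1%, 11.5 to 12.7%) and 999 of 11501 in pregnancy (8.69%, 8.18 to 9.22%). The numbers were 504 of 8454 in lactation (5.96%, 5.47 to 6.49%) and 518 of 9863 in involution (5.25%, 4.82 to 5.71%). The intervals of puberty and adult overlapped each other, as did those of lactation and involution. Detection of 2 genes favours deeply sequenced cells, so cells were also thinned to 2000 UMIs, and shallower cells were left out. This kept 6682, 11312, 10191, 8330 and 9626 fibroblasts from puberty to involution, with the largest loss in pregnancy (10191 of 11501 kept). The thinned shares were 2.59% in puberty (2.22 to 3.0%), 3.27% in the adult (2.95 to 3.62%) and 4.12% in pregnancy (3.74 to 4.53%). They were 1.94% in lactation (1.66 to 2.26%) and 1.22% in involution (1.01 to 1.45%). At equal depth pregnancy, not the adult, had the highest share, and lactation and involution stayed the lowest.

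**Figure D1:**
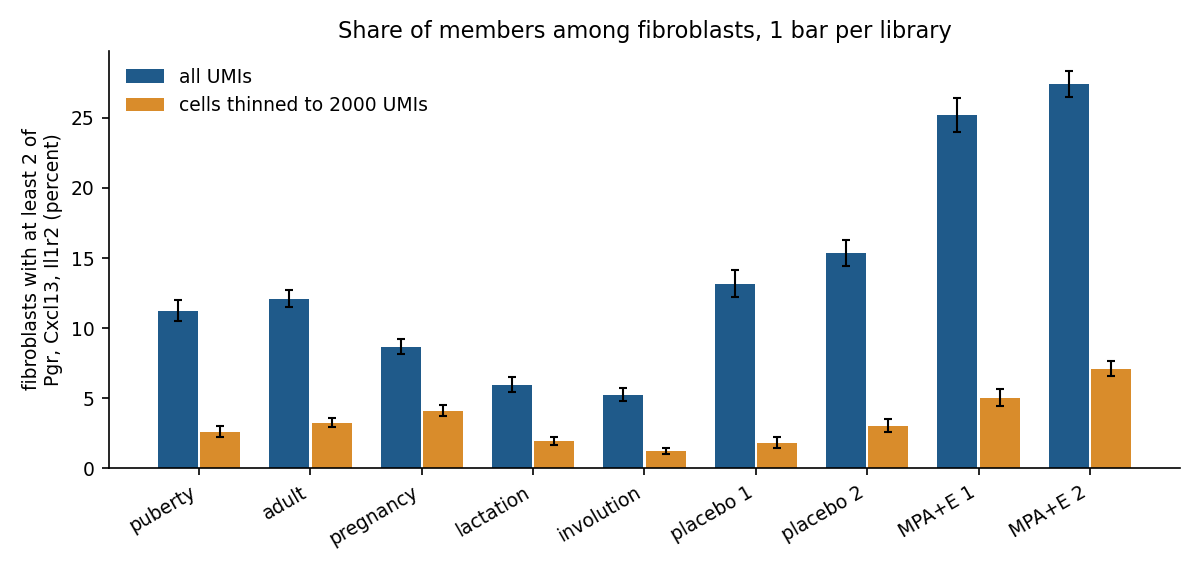
The share of fibroblasts with UMIs of at least 2 of Pgr, Cxcl13 and Il1r2 (percent, vertical axis) in each stage, placebo and MPA+E library, from all UMIs (blue) and after thinning each cell of at least 2000 UMIs to that number (orange), with 95% exact binomial intervals that cover counting error only. With thinning the stage order changes from adult highest at 12.1% to pregnancy highest at 4.12%, and the MPA+E libraries stand above placebo at both depths.

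Free RNA can place UMIs in cells that do not make a transcript, so the same rule was applied to other cell types of the stage libraries. No endothelial barcode passed it, of 23 to 203 per library, and no pericyte barcode, of 40 to 191 per library. At 2000 UMIs per barcode no pericyte passed of 76, 25, 81, 86 and 76 in stage order, which allows shares of up to 3.95%, 12%, 3.70%, 3.49% and 3.95%. The upper ends of the 95% exact binomial intervals were 4.74%, 13.7%, 4.45%, 4.20% and 4.74%, each above the thinned share of members of its stage, so a background of the size of those shares was not detectable at this depth. In pregnancy 1 of 120 epithelial barcodes passed (0.833%, median 5874 UMIs). Single genes at 2000 UMIs had different patterns over the stages. Pgr was detected in 5.21%, 5.01% and 5.12% of fibroblasts in puberty, adult and pregnancy, then in 0.888% in lactation and 2.10% in involution. Cxcl13 was detected in 5.52%, 8.25%, 7.32%, 8.03% and 3.62% of fibroblasts in the same stage order, and Il1r2 in 9.71%, 11.3%, 14.3%, 11.3% and 7.78%. The lowest stage was thus lactation for Pgr and involution for the other two.

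The members differed among themselves in which genes they carried, and lactation differed from the other stages. A Pgr UMI was found in 66.6, 53.5, 57.2, 22.4 and 48.1% of members from puberty to involution. A Cxcl13 UMI was found in 69.1%, 76.3%, 68.6%, 87.7% and 69.5% of members in the same order, and an Il1r2 UMI in 88.0%, 92.0%, 91.1%, 95.8% and 94.0%. All 3 genes were carried by 190, 315, 168, 30 and 60 members from puberty to involution (23.7, 21.8, 16.8, 5.95 and 11.6%). Cells with Cxcl13 and Il1r2 but no Pgr UMI made up 33.4, 46.5, 42.8, 77.6 and 51.9% of members in that order. In lactation more than 3 in 4 members therefore entered through Cxcl13 and Il1r2.

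**Figure D2:**
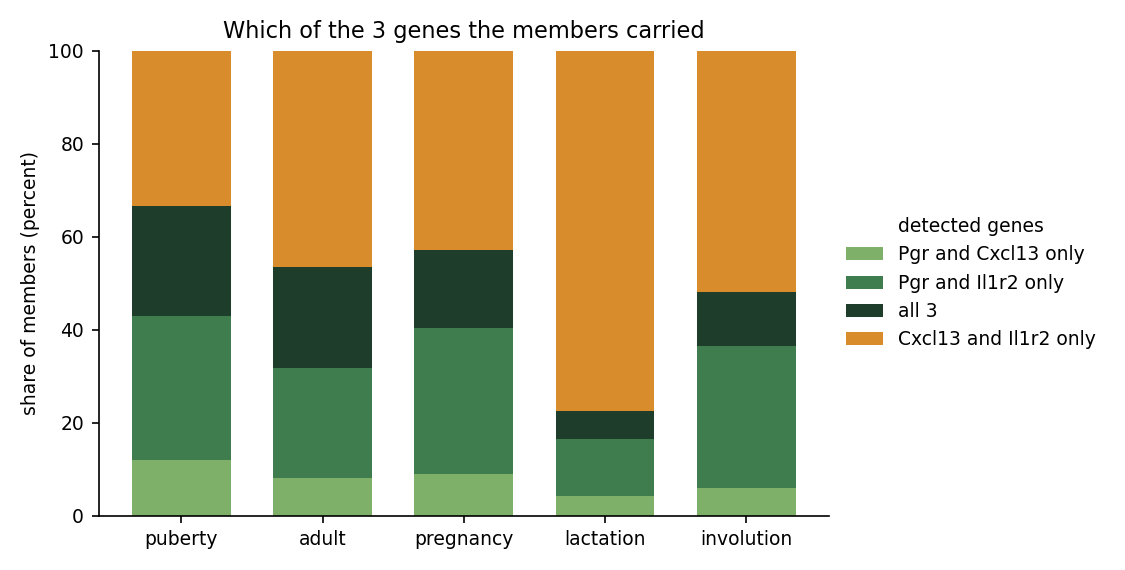
The share of members (percent, vertical axis) with each combination of detected genes in the 5 stage libraries, stacked to 100%, with members that carried all 3 genes in dark green and those with Cxcl13 and Il1r2 alone in orange. The orange class reaches 77.6% in lactation and 33.4% in puberty.

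In summed counts the Pgr level of members was 179, 163, 204, 36.2 and 105 CPM (UMIs scaled to the total of the summed cells) from puberty to involution, against 2.09 to 17.3 in the remaining fibroblasts. Their Cxcl13 level was 215, 365, 487, 1390 and 290 CPM in the same order, against 18.0 to 82.0 in the remaining fibroblasts. Their Il1r2 level was 196, 232, 367, 264 and 211 CPM, against 34.5 to 64.8. Within members Pgr was thus lowest and Cxcl13 highest in lactation, and Il1r2 varied least of the 3. Around the threshold, adult fibroblasts with exactly 1 of the genes (2939 cells) had 43.3 CPM of Pgr, 94.7 of Cxcl13 and 144 of Il1r2, and those with exactly 2 (1131 cells) had 113, 348 and 226 CPM. Median depth rose with the number of genes detected there, from 6909 UMIs with 1 gene to 8285 with 2. Over the stages the median UMIs per cell were 9720.5, 8758, 4606, 6557 and 8239 from puberty to involution for members, and 6366, 5492, 3920, 7147 and 7242 for the remaining fibroblasts. Members were deeper in every library except lactation, so the comparisons of members with remaining cells below were repeated against remaining fibroblasts drawn to the members' depth, with medians of 9722.5, 8750.5, 4605, 6557.5 and 8239.5 UMIs.

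Detection of the 3 genes chose the members, so the odds ratios of their joint detection are only a description over cells. Within depth classes these were 2.02 to 3.60 over the 3 gene pairs in the 5 stage libraries. The pair Cxcl13 and Il1r2 reached 10.7 in MPA+E library 1 and 6.50 in MPA+E library 2, against 3.54 and 3.90 in the placebo libraries. Members also lay near each other when cells were compared on variable genes without Pgr, Cxcl13, Il1r2 and Ccn5. Among the 20 nearest neighbours of a member, on average 44.4, 44.4, 31.8, 18.6 and 19.0% were members from puberty to involution. Around remaining fibroblasts of the same depth the figures were 13.1%, 13.3%, 7.24%, 5.38% and 5.10%. Members thus lay among members more often than depth-matched cells did at every stage, and both figures were lower in lactation and involution, where members were a smaller share of the fibroblasts.

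No cluster of fibroblasts coincided with the members. In puberty 1 cluster of 960 cells, led by Tgm2, Il31ra, Celf4, Greb1 and Uts2, held 53.4% of the members, which were 44.6% of its cells. In the adult a cluster of 677 cells, led by Tgm2, Nrk, Ptpn5, Il31ra and Greb1, held 32.8% of the members and was 70.2% members. A cluster led by Dmkn, Krtdap and Sbsn held a further 17.5% of the adult members and an interferon-led cluster 17.4%. In pregnancy a cluster of 1426 cells led by Il31ra, Tdo2 and Trdn, with Greb1 but not Tgm2 among its 10 leading genes, held 51.4% of the members. In lactation 54.6% of members lay in a cluster of 1736 cells led by Dmkn, Krtdap and Itgb7, of which 15.8% were members. In involution the members were divided between clusters with 38.2% and 28.0% of them. Tgm2, Il31ra and Greb1 thus led the main cluster of both puberty and adult, while the lactation cluster was led by genes of the adult cluster with 17.5% of the members.

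Members carried the defining markers of fibroblasts, as the gate on Dcn, Lum and Col1a2 made likely for both groups. Pdgfra, the receptor gene used as a general fibroblast marker, was at 214, 250, 188, 405 and 328 CPM in members, in stage order, and at 196, 272, 221, 527 and 454 CPM in the remaining fibroblasts. Its log2 difference was −0.19 (adjusted p = 0.204). Col1a1, a chain of type I collagen, differed by −0.02 (adjusted p = 0.970) and Col3a1, the type III collagen chain, by −0.21 (adjusted p = 0.469) over the stages, while in the hormone libraries both were lower in members (Col1a1 −0.60, adjusted p = 5.93e-03, and Col3a1 −0.60, adjusted p = 2.46e-03). These and all later adjusted p-values come from edgeR's quasi-likelihood test on UMIs summed over the members and over the remaining fibroblasts of each library, with the library as a block and Benjamini-Hochberg adjustment over all genes tested. Differences are log2 members over remaining cells, ± SE. The genes of the rule and of the fibroblast gate were not tested.

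Over the 5 stage libraries 984 of 13775 genes were higher in members, which is a background of 7.14%, and 1231 were lower, a background of 8.94%. Against depth-matched cells the backgrounds were 8.28% and 8.69% of 12584 genes, and 861 of the higher and 993 of the lower genes were called in both fits with none in opposite directions. Ccn5 was among the higher genes, with a log2 difference of 1.11 ± 0.19 (adjusted p = 2.42e-03, higher in 5 of 5 libraries). Ccn5 was proposed as a marker with earlier results of these data known, so this value is a description and not independent evidence. It stood at 227, 191, 232, 33.5 and 51.2 CPM from puberty to involution in members, and at 72.5, 79.0, 91.5, 19.3 and 48.0 CPM in the remaining fibroblasts. The first 3 stages stood far apart from the remaining cells and involution barely did. The 12 genes with the largest higher and lower differences that also held against depth-matched cells, in all 5 libraries, and at 20 CPM or more are described next. They came from 497 higher and 412 lower genes that met these conditions.

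Il31ra, a subunit of the receptor for the cytokine IL-31, differed most. Its level in members was 118, 51.0, 88.0, 8.72 and 18.8 CPM from puberty to involution, and in remaining cells 16.2, 9.01, 13.6, 2.12 and 1.81 CPM. Members were higher in every library, although lactation members did not reach the puberty level of remaining cells. The log2 difference was 2.76 ± 0.13 (edgeR quasi-likelihood, adjusted p = 1.95e-06). Greb1, an estrogen-induced gene whose product binds the estrogen receptor, was at 62.1, 81.0, 66.5, 7.90 and 19.0 CPM in members and at 10.7, 17.3, 21.1, 2.63 and 6.00 CPM in remaining cells, a difference of 2.05 ± 0.15 (edgeR quasi-likelihood, adjusted p = 9.73e-06). Ptpn5, a tyrosine phosphatase best known from neurons, was at 54.0, 102, 23.3, 2.18 and 10.7 CPM in members against 10.8, 20.9, 7.62, 0.101 and 1.19 CPM, a difference of 2.33 ± 0.18. Among the member libraries lactation was the lowest for all 3.

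The other higher genes had varied products. Celf4 (log2 difference 1.90) encodes an RNA-binding protein, Arl4c (1.86) a small GTPase, Nexmif (1.75) a nuclear protein of neurite growth, Rnase10 (1.70) a secreted protein of the RNase A family and Ampd3 (1.58) an AMP deaminase. Tmod1 (1.56) caps actin filaments, Nrcam (1.38) is an adhesion molecule, Dhrs9 (1.5) oxidises retinol and steroids, and Akr1c14 (1.37) reduces steroids such as dihydrotestosterone. Akr1c14 was at 110, 64.6, 91.2, 70.6 and 101 CPM in members from puberty to involution and at 39.3, 21, 34.3, 38.9 and 41.6 CPM in remaining cells, so the groups did not overlap over the 5 stages. The adjusted p-values of the 12 higher genes ran from 1.70e-06 for Rnase10 to 2.15e-04 for Celf4. Tgm2, a transglutaminase that crosslinks proteins, led the clusters above but lay outside this set, with 411, 340, 109, 4.63 and 33.6 CPM in members against 73.5, 52.6, 30.7, 15.8 and 29.3 CPM. It was higher in 4 of 5 libraries and lower in lactation (log2 difference 1.59 ± 0.46, adjusted p = 0.0394).

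**Figure D3:**
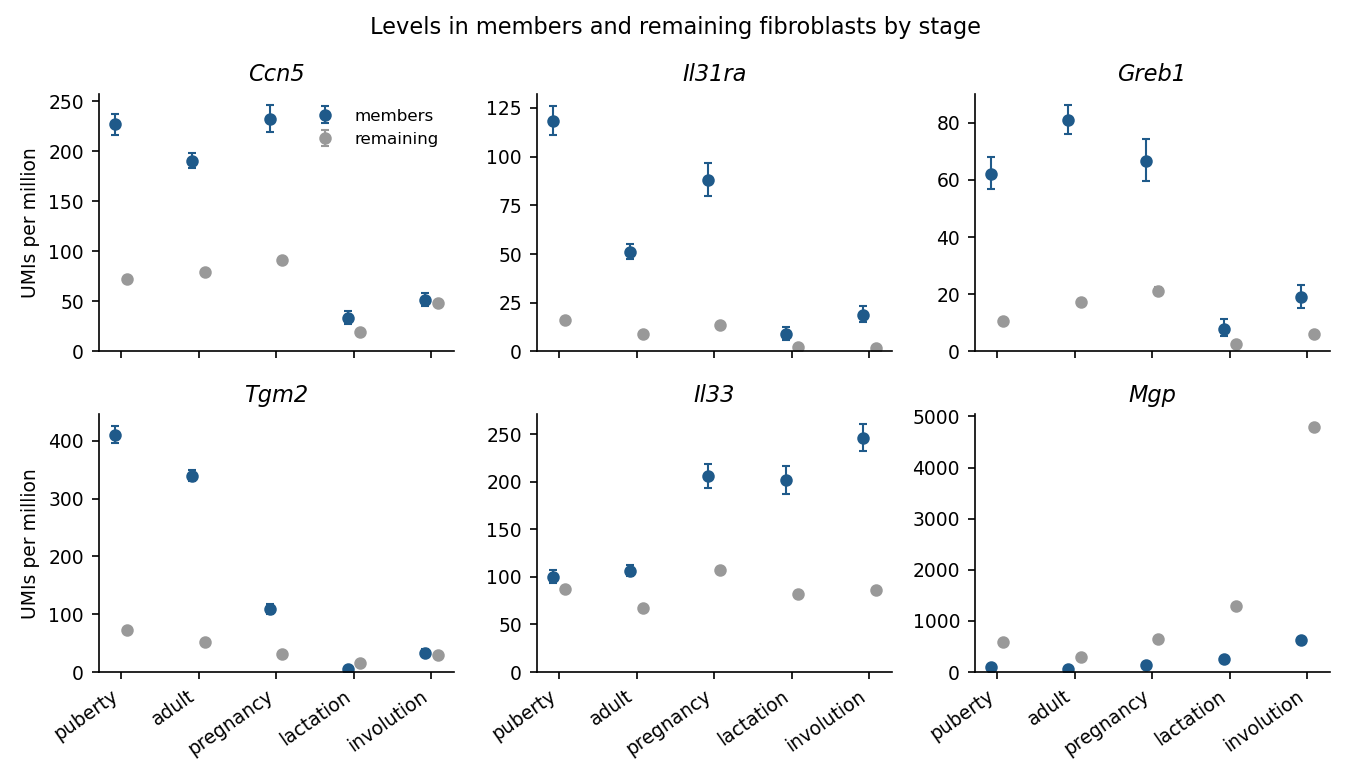
Levels of Ccn5, Il31ra, Greb1, Tgm2, Il33 and Mgp (CPM, vertical axes starting at 0) in members (blue) and remaining fibroblasts (grey) of each stage library, with 95% Poisson intervals of the summed count. Il31ra and Greb1 are higher in members at each stage, Tgm2 in all but lactation, and Mgp is lower in members at each stage, for example 627 against 4791 in involution.

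Of the 12 lower genes, Mgp, a matrix Gla protein that inhibits calcification, was at 103, 66.9, 139, 251 and 627 CPM from puberty to involution in members, and at 579, 301, 646, 1285 and 4791 CPM in the remaining fibroblasts, a difference of −2.41 ± 0.11 (edgeR quasi-likelihood, adjusted p = 1.70e-06). Thbs4, a thrombospondin and marker of lobular fibroblasts, was at 33.1, 39.3, 45.9, 40.1 and 15.5 CPM against 263, 337, 206, 109 and 199 CPM, a difference of −2.64 ± 0.24 (adjusted p = 5.15e-05). Thbs4 did not overlap between members and remaining cells over the stages, and Mgp did through the involution members. Col8a1 (−2.70), Hmcn2 (−2.56), Egflam (−2.59), Lamc3 (−2.31) and Frem1 (−2.30) are further components of collagen networks and basement membranes. Hc (−2.74) encodes complement component 5, F2r (−2.67) the thrombin receptor PAR1, Crabp1 (−2.48) a retinoic acid binding protein, C1qtnf3 (−2.40) a secreted adipokine and Igfbp2 (−2.36) an insulin-like growth factor binding protein. Igfbp2 had no UMI in puberty members and 2.67, 11.7, 3.27 and 21.1 CPM in those of the later stages, against 2.03, 16.7, 26.0, 11.5 and 170 CPM.

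Most members carried both Pi16 and Dpp4, the defining pair of the progenitor state of mammary fibroblasts, a state held in common by fibroblasts of many tissues. Both were detected in 81.8, 78.1, 69.5, 78.6 and 81.1% of members from puberty to involution, and in 55.3%, 52.5%, 40.2%, 53.0% and 41.8% of depth-matched remaining cells. The lobular pair Thbs4 and Cilp was detected together in 1.16 to 2.84% of members and in 7.63 to 16.3% of depth-matched cells. Of the 12 progenitor genes, all tested, 11 were higher in members and none lower (median log2 difference 0.59, against 0.00 over all genes tested). Smpd3, a sphingomyelinase, differed by 1.18, Dpp4, the peptidase CD26, by 0.89, Ly6c1 by 0.85 and the annexin Anxa3 by 0.83. Dpp4 was at 276, 313, 340, 586 and 445 CPM in members against 192, 192, 191, 285 and 189 CPM, so 4 of the 5 member libraries lay above all remaining ones. The lists of fibroblast states follow states that the study named on these libraries, so these counts are not independent evidence of their direction.

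Genes of the preadipocyte, ECM remodelling and lobular states were mostly lower in members. Of 9 preadipocyte genes tested 8 were lower (median −0.88), with Sparcl1 at −1.58, the fatty acid carrier Fabp4 at −1.51, Col15a1 at −1.48 and the fatty acid receptor Cd36 at −1.02. Of 10 genes of the ECM remodelling state 8 were lower (median −1.92), with Pla2g7 at −2.77, Stra6 at −2.71 and Enpp2 at −2.07. Of 11 lobular genes 8 were lower (median −1.44), among them Bmp5 at −2.50. Of 10 genes of the adipogenesis-regulatory state 6 were lower and 2 higher (median −0.64), with F3, the tissue factor that starts coagulation, at −1.37, Fmo2 at −1.33, Meox2 at −1.13 and Chrdl1, a BMP antagonist, at 1.27. Chrdl1 was at 156, 91.9, 175, 254 and 206 CPM in members and at 110, 49.1, 68.4, 70.6 and 68.4 CPM in remaining cells. Of 10 cell cycle genes 1, Stmn1, was lower (−0.71), a call lost without the puberty (adjusted p = 0.059) or the pregnancy library (adjusted p = 0.0823), and against depth-matched cells 8 were lower (median −1.47).

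Since most members had the progenitor pair, members with both Pi16 and Dpp4 were also compared with depth-matched remaining fibroblasts that had both, a comparison chosen after the data were seen. There 360 of 11731 genes were higher (a background of 3.07%) and 427 lower (3.64%), fewer than against all fibroblasts. All 24 named genes held their direction and passed the test. Il31ra differed by 2.31, Greb1 by 1.65 ± 0.08, Ptpn5 by 1.62 ± 0.14, Ccn5 by 0.74 ± 0.12 and Thbs4 by −1.96 ± 0.20. Crabp1 moved most, from −2.48 to −0.70. Of the 12 progenitor genes, a list that includes the pair that chose these cells, 5 were higher, and the preadipocyte, ECM remodelling and lobular lists had 3 of 9, 5 of 10 and 8 of 11 genes lower (medians −0.45, −0.85 and −1.02, against 0.00 over all genes). The adipogenesis-regulatory list went from 6 lower and 2 higher to 3 higher, Chrdl1 (1.01), Gas6 (0.60) and C2 (0.55), and 1 lower, F3 (−0.74, median −0.15). Several examples given from these lists did not pass there, Stra6 (−0.99, adjusted p = 0.265), Cd36 (−0.55, adjusted p = 0.249), Fmo2 (−0.13, adjusted p = 0.855) and Meox2 (−0.55, adjusted p = 0.181), and Meox2 also lost its call without the adult (adjusted p = 0.0838) or the pregnancy library (adjusted p = 0.0582).

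**Figure D4:**
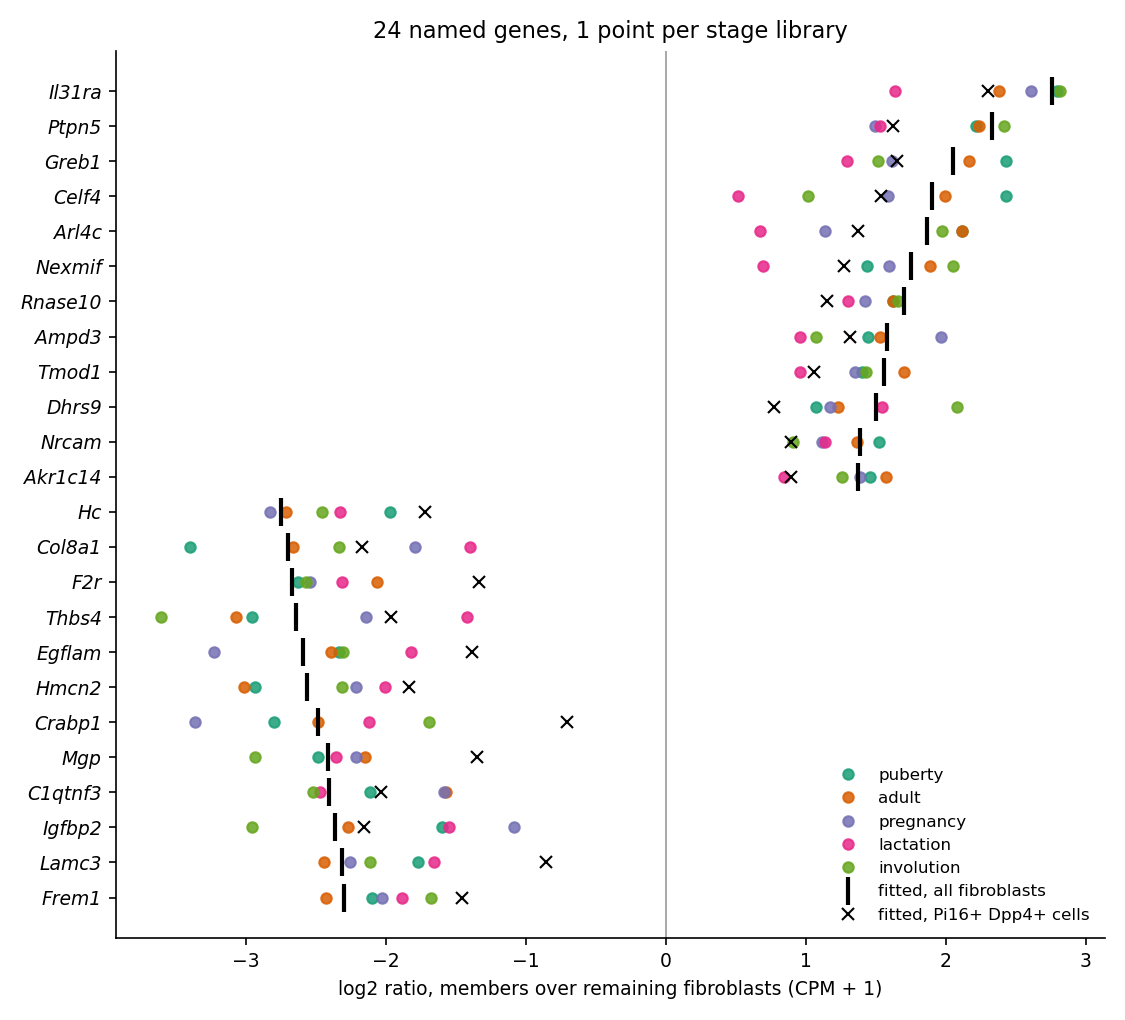
Log2 ratios of members over remaining fibroblasts (horizontal axis, CPM with 1 added) for the 24 named genes, with 1 point per stage library, a bar for the fitted value over all fibroblasts and a cross for the fit within cells that carried both Pi16 and Dpp4. Il31ra is the highest fitted value at 2.76, and the cross of Crabp1 lies at −0.70.

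Steroid hormone genes differed in both directions. Of 24 listed 20 were tested, and 6 were higher and 4 lower (median −0.02). Beside Greb1, the higher genes included Esr1, the estrogen receptor alpha (0.90 ± 0.09, edgeR quasi-likelihood, adjusted p = 6.11e-05) and Ghr, the growth hormone receptor (0.92). Esr1 was at 142, 83.8, 119, 125 and 136 CPM in members and at 67.4, 50.1, 65.4, 84.2 and 64.1 CPM in remaining cells. It was not low in the lactation library, where Pgr and Greb1 were. Placebo members, from females of 9 weeks like the adult library, had 11.0 and 13.4 CPM of Greb1 and 41.6 and 52.6 of Pgr. These levels lay nearer to lactation than to the adult, so the low lactation levels cannot be told apart from differences between libraries. Lower in members over the stages were the transcription factors Hand2 (−1.64) and Nr2f2 (−1.34), both known from the progesterone response of uterine stroma, and Hsd11b1, which regenerates active glucocorticoid (−1.01). Within Pi16 and Dpp4 cells Hsd11b1 was −0.22 and did not pass (adjusted p = 0.541). Hand2 was scarce, at no more than 1.51 CPM in any library. It did not pass after thinning (−1.67, adjusted p = 0.235) or without the adult library (−1.18, adjusted p = 0.0933). Nr2f2 was at 10.3, 18.2, 11.9, 46.3 and 29.2 CPM in members against 43.4, 50.3, 32.8, 72.5 and 73.5 CPM, with overlap only through lactation members.

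Of 19 tested in the IL-1 and IL-6 family list 7 were higher and 2 lower (median 0.07), with Il18 at 1.00 and Il33, an alarmin of the IL-1 family, at 0.95 ± 0.15. Il33 was at 100, 106, 206, 202 and 246 CPM in members from puberty to involution and at 87.6, 66.9, 108, 82.5 and 86.5 CPM in remaining cells. Members of the last 3 stages stood above all remaining cells. Within Pi16 and Dpp4 cells 4 of the 19 were higher and 3 lower (median 0.06), and Il18 did not pass (0.32, adjusted p = 0.0537). The signalling receptor Il1r1, which binds the same ligand as the decoy, had a difference of 0.13 that did not pass (adjusted p = 0.161). Il34, a ligand of the CSF1 receptor (−1.48), and Lifr, the LIF receptor (−1.16), were lower. Of 18 chemokine genes 3 were higher and 5 lower (median 0.01), and the 4 largest, Cx3cl1 (−1.78), Cxcl9 (−0.84), Cxcl14 (−0.78) and Cxcl12 (−0.75), were all lower. Within Pi16 and Dpp4 cells Cxcl9 was −0.25 (adjusted p = 0.544), Cxcl14 −0.28 (adjusted p = 0.442) and Cxcl12 −0.30 (adjusted p = 0.229), none passing. Of 15 tested genes of lymphoid stroma and the TNF family 1 was higher, Tnfrsf1b (0.73), and 3 lower, the lysophospholipase Enpp2 (−2.07), the adhesion molecule Icam1 (−0.49) and the lymphotoxin receptor Ltbr (−0.26). Ltbr did not pass against depth-matched cells (adjusted p = 0.0726), with DESeq2 (adjusted p = 0.0533), without marked doublets (adjusted p = 0.058) or within Pi16 and Dpp4 cells (adjusted p = 0.334). Nor did it pass without any 1 of the adult, pregnancy, lactation and involution libraries (adjusted p from 0.0692 to 0.129). Icam1 did not pass within Pi16 and Dpp4 cells (adjusted p = 0.0881) or without the adult (adjusted p = 0.0635) or the pregnancy library (adjusted p = 0.0547).

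Among genes of matrix and growth factor signalling that passed, more were lower than higher in most lists, and many did not pass. Of 46 matrix protein genes 23 were lower and 2 higher (median −0.41), with Fmod at −2.19. Of 23 matrix enzyme genes 4 were higher and 4 lower (median −0.03), with the metalloproteinases Mmp11 at −1.10 and Mmp3 at −0.73, Adamts4 at −0.97 and the lysyl oxidase Loxl4 at 0.70. In the CCN family Ccn5, Ccn1 (0.53) and Ccn3 (0.59) were higher and Ccn4 (−2.53) and Ccn2 (−1.91), the connective tissue growth factor, were lower (median 0.53 over 5 genes). Ccn3 did not pass within Pi16 and Dpp4 cells (0.06, adjusted p = 0.890) or without the pregnancy library (adjusted p = 0.0561). Of 32 Wnt pathway genes 11 were lower and 2 higher (median −0.13), with Wnt6 at −2.64, Wnt10a at −2.19, Nkd2 at −1.71 and Ror1 at −1.54, the first pair under 2 CPM in every library. Of 33 TGF-beta and BMP genes 10 were lower and 3 higher (median −0.16), with Inhba at −1.52 and Inhbb at −1.18. Of 26 genes on the list of epithelium-directed growth factors 9 were lower and 3 higher (median −0.46). Ereg was at −2.63, Spp1 at −2.26, Mdk at −1.99 and Vegfc at −1.74. Not every gene on this list is a growth factor or acts on epithelium. Of 6 IGF-binding proteins 2 were lower and 1, Igfbp6 (0.53), was higher (median 0.10), with Igfbp7 at −1.0. Of 10 Hedgehog genes 6 were lower and none higher (median −0.68), with Hhip at −1.97, Gli1 at −1.57 and Gli2 at −0.87. Within cells that carried Pi16 and Dpp4, no Hedgehog gene passed of 8 tested, while 23 of 46 matrix protein genes were lower and 3 higher (median −0.30). Mmp11 (−0.39), Mmp3 (−0.19), Loxl4 (0.38), Igfbp6 (0.16) and Gli2 (−0.40) did not pass there either (adjusted p from 0.155 for Loxl4 to 0.634 for Mmp3). Leaving out a library ended the calls of Wnt10a (adult, pregnancy or involution), Fmod (involution), Inhba (adult) and Mmp11 (pregnancy), with adjusted p-values from 0.052 for Inhba to 0.116 for Wnt10a. When members needed all 3 genes, Wnt6 (−2.42, adjusted p = 0.0941), Wnt10a (−1.55, adjusted p = 0.397), Gli1 (−1.45, adjusted p = 0.0801) and Inhbb (−1.21, adjusted p = 0.0519) did not pass. With members chosen after thinning Wnt6 (−2.48, adjusted p = 0.0559), Wnt10a (−2.92, adjusted p = 0.0854), Gli1 (−1.74, adjusted p = 0.0547) and Gli2 (−0.68, adjusted p = 0.0856) did not.

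**Figure D5:**
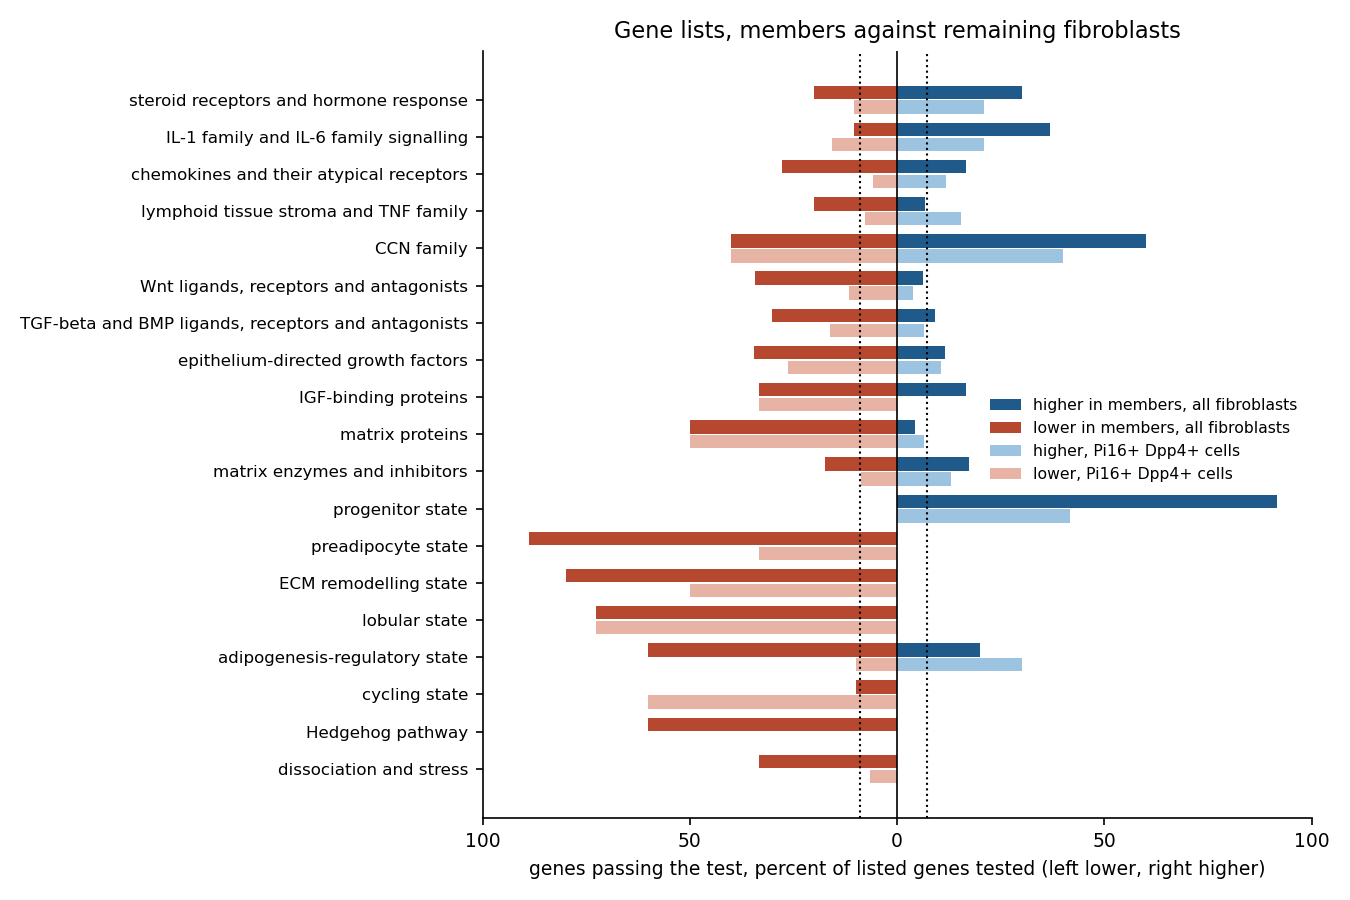
For each gene list, the percent of its tested genes that were higher (blue, to the right) or lower (red, to the left) in members by edgeR's quasi-likelihood test with Benjamini-Hochberg adjustment, over all fibroblasts (dark) and within cells that carried both Pi16 and Dpp4 (pale), with dotted lines at the percentages over all genes, 7.14% higher and 8.94% lower. The dotted lines apply to the dark bars only, since within Pi16 and Dpp4 cells the percentages over all genes were 3.07% higher and 3.64% lower. Over all fibroblasts the progenitor list lies to the right with 11 of 12 genes, and the preadipocyte, ECM remodelling and lobular lists lie to the left with 8 genes each.

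Markers of other cell types were low in members, and not for every type lower than in remaining cells. The gate had removed cells with a UMI of Epcam, Pecam1, Rgs5, Sox10 or Ptprc from both groups. Low levels of epithelial, endothelial, pericyte, Schwann cell and immune genes were therefore likely in advance and do not measure purity. Summed over 13 epithelial genes, members had 21.5 to 60.1 CPM and remaining cells 11.1 to 70.8 CPM, with 1 of 4 tested genes lower, Cited1 (−1.56), and the median at −0.36. The epithelial sum was higher in members in 3 of 5 libraries, among them lactation (21.5 against 11.1 CPM) and involution (35.3 against 15.9 CPM). Over 12 endothelial genes the ranges were 16.9 to 74.8 and 18.8 to 56.5 CPM, with Mmrn1 and Tie1 at 0 in members, 3 of 5 tested genes lower, Plvap (−1.70), Flt1 (−2.04) and Egfl7 (−1.56), and Kdr higher (1.04, median −1.56). The endothelial sum was higher in members in 3 of 5 libraries, at 54.1 against 36.4 CPM in the adult, 74.8 against 56.5 in pregnancy and 35.3 against 32.4 in involution. Over 12 pericyte and smooth muscle genes the ranges were 36 to 306 and 50.4 to 416 CPM, with Higd1b at 0 in members and 4 of 11 lower, among them Ndufa4l2 (−1.92) and Acta2 (−0.53, median −0.53). Over 7 Schwann cell genes members had 56.9 to 92.2 CPM and remaining cells 39.9 to 91.2. Members were higher in 5 of 5 libraries, and Mal (1.59) and Mbp (0.88) passed (median 0.14). Mal did not pass without marked doublets (0.73, adjusted p = 0.560), without the adult library (adjusted p = 0.143) or without the pregnancy library (adjusted p = 0.0611). Over 10 immune genes the ranges were 1.37 to 5.67 and 1.93 to 11.3 CPM, with Cd3e and Laptm5 at 0 in members and Lyz2 lower (−1.71, median −0.99 over 3 tested). Over 10 genes of lymph node reticular cells, which also make CXCL13, the ranges were 61.3 to 106 and 53.8 to 109 CPM, with Fcamr at 0 in members and Sox9 lower (−0.51, median −0.05 over 4 tested). The reticular sum was higher in members in 2 of 5 libraries, at 106 against 96.6 CPM in the adult and 91.8 against 53.8 in lactation. Over 7 mesothelial genes the ranges were 15 to 46.5 and 5.43 to 28.4 CPM, with Lrrn4 and Msln at 0 in members and Wt1 lower (−3.0, median −0.41 over 3 tested). The mesothelial sum was higher in members in 3 of 5 libraries, at 46.5 against 28.4 CPM in the adult, 15 against 5.43 in lactation and 32.3 against 12.6 in involution. Krt19, a keratin gene on both the epithelial and the mesothelial list, did not pass against all remaining cells (0.71, adjusted p = 0.0670) and was higher against depth-matched cells (0.73, adjusted p = 0.0422).

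Several of these calls were lost in other settings. Egfl7, Lyz2 and Wt1 lost theirs in several, among them without the puberty library (adjusted p = 0.0705, 0.0834 and 0.0639). Within Pi16 and Dpp4 cells Cited1 (−0.33, adjusted p = 0.528), Ndufa4l2 (−0.94, adjusted p = 0.110) and Sox9 (−0.42, adjusted p = 0.251) did not pass, and Sox9 did not with members chosen after thinning (−0.13, adjusted p = 0.766). Flt1 did not pass when members needed all 3 genes (adjusted p = 0.218) or were chosen after thinning (adjusted p = 0.180), and Acta2 did not with all 3 genes (adjusted p = 0.625) or a fibroblast gate of 100 UMIs per 10000 (adjusted p = 0.0594). The part of RNA or cells of these other types in the results was not tested.

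The mitochondrial percentage and the summed stress genes were lower in members at every stage. The mitochondrial percentage was 2.79, 1.78, 2.30, 2.20 and 2.56 in members from puberty to involution and 3.32, 2.62, 3.45, 2.61 and 2.86 in remaining cells. Of 15 dissociation and stress genes 5 were lower and none higher (median −0.13), with Hspa1b at −0.54, Ier3 at −0.33, Junb at −0.31 and Ier2 at −0.31, and their sum was lower in members in 5 of 5 libraries (20419 to 30485 against 23305 to 34341 CPM). Within Pi16 and Dpp4 cells Hspa1b (−0.28, adjusted p = 0.0831), Junb (−0.06, adjusted p = 0.668) and Ier2 (−0.03, adjusted p = 0.852) did not pass, and Ier3 and Junb did not without the adult library (adjusted p = 0.0957 and 0.107) or the pregnancy library (adjusted p = 0.0697 and 0.0712). The barcodes with the highest Scrublet scores were marked as doublets, up to a fixed quota of 0.8% per 1000 barcodes. The marked share was 7.11, 15.8, 12.5, 9.13 and 14.3% of members in the 5 libraries. It was 6.77, 9.46, 10.3, 6.86 and 8.40% of remaining cells, so the members' percentage was higher at each stage. Scrublet's own threshold called only 1, 0, 463, 238 and 1 barcodes as doublets in these libraries. The part of doublets, depth and stress in the differences above was not tested beyond the depth-matched comparison and the repeat without marked doublets.

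Across stages, ratios within members were ranked among listed and named genes with at least 30 UMIs in the highest stage. The largest were those of milk protein genes, which a rule fixed on size named. Wap, the whey acidic protein, was at 282 CPM in lactation members and at 0 in puberty and the adult, at least 741-fold higher against a floor of 3 counts, and Csn2, a casein, was at least 614-fold higher (233 CPM in lactation). Csn1s2a, Csn1s1, Csn1s2b and Csn3 were at least 452-, 402-, 374- and 288-fold higher. The remaining fibroblasts of lactation had like levels, 227 CPM of Wap and 176 of Csn2, and of 4 milk genes tested none passed (median 0.14; 8 listed). Summed milk transcripts reached 1102 CPM in lactation members and 858 in remaining cells, so lactation stood apart in both kinds of cells.

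The rule was also applied to the placebo and MPA+E libraries. With placebo 13.2% and 15.3% of fibroblasts were members, and with MPA+E 25.2% and 27.4%, and at 2000 UMIs the shares were 1.81% and 3.06% against 5.01% and 7.13%. Both MPA+E libraries stood above both placebo libraries at either depth, with 2 libraries a side and no test. A Pgr UMI was found in 38.7% and 36.4% of placebo members and in 71.5% and 72.0% of MPA+E members. The Pgr level of members was 41.6 and 52.6 CPM with placebo and 106 and 149 CPM with MPA+E, their Cxcl13 level 263 and 676 against 247 and 309 CPM, and their Il1r2 level 200 and 208 against 305 and 322 CPM. These 3 genes chose the members, so their levels here are a description.

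Members against remaining fibroblasts were tested in these 4 libraries, which are separate from those of the stages. Of 14465 genes 2737 were higher (a background of 18.9%) and 2624 lower (18.1%). Members were deeper here, with medians of 17784 and 15832 UMIs in placebo and 20643 and 12615 in MPA+E libraries. The remaining cells had 13546 and 11788, and 15263 and 9245 UMIs. Against depth-matched cells 2299 genes were higher and 2196 lower. The overlaps that follow use the fit against all remaining cells. Of the 984 genes higher over the stages 863 were higher here too, which is 87.7% of them and 31.5% of the hormone library genes, and of the 1231 lower genes 1052 were lower (85.5% and 40.1%), with 2 genes called in opposite directions. Of the 24 named genes 23 passed in the same direction, all but Arl4c (0.54 ± 0.23, adjusted p = 0.112). Within cells of these libraries that carried Pi16 and Dpp4, Arl4c did pass (0.62, adjusted p = 3.91e-03), and Rnase10 (0.49, adjusted p = 0.127) and Crabp1 (−0.69, adjusted p = 0.0775) did not. Il31ra was at 5.03 and 13.1 CPM in placebo members and 10.2 and 20.4 CPM in MPA+E members, against 1.83, 2.51, 2.04 and 3.23 CPM in the remaining cells, a difference of 2.34 ± 0.18 (edgeR quasi-likelihood, adjusted p = 1.03e-04). Members were higher in each of the 4 libraries. Of the 12 progenitor genes all 12 were higher (median 1.04, against 0.01 over all genes), and of the 21 steroid hormone genes tested 9 were higher and 4 lower (median 0.07).

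Levels of several genes differed between the treatments, in members and in remaining cells by unequal amounts, and these differences were not tested. Greb1 was at 11.0 and 13.4 CPM in placebo members and at 179 and 162 CPM in MPA+E members, against 5.04 and 5.19 and then 69.7 and 52.7 CPM in the remaining cells. Members were above remaining cells under both treatments (1.46 ± 0.08, edgeR quasi-likelihood, adjusted p = 3.66e-05). Tgm2 was at 9.28 and 28.1 CPM in placebo members, below the 24.5 and 31.1 CPM of remaining cells, and at 418 and 586 CPM in MPA+E members, above their 70.8 and 114 CPM (1.13 ± 0.67 over the 4 libraries, adjusted p = 0.228). Ccn5 was at 38.6 and 36.5 CPM in placebo members and 381 and 327 CPM in MPA+E members, against 29.7 and 23.4 and then 147 and 81.9 CPM (1.19 ± 0.25, adjusted p = 9.27e-03), and within cells that carried Pi16 and Dpp4 its difference was 0.50 and did not pass (adjusted p = 0.108). Esr1 went the other way, at 117 and 106 CPM in placebo members and 25.6 and 37.6 CPM in MPA+E members, and remained above the remaining cells (62.8, 54.4, 13.8 and 16.1 CPM, difference 1.05 ± 0.07, adjusted p = 5.96e-05).

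Within the members of the stages, those with a Pgr UMI were set beside those without, which by the rule carried both Cxcl13 and Il1r2. Pgr is a gene of the rule, so the values that follow describe the members, and no test is drawn from them. The 2 sets were not depth-matched (medians of 10281.5 against 8802 UMIs in puberty and 9257 against 8217 in the adult). Of 9927 genes 204 were called higher with Pgr (a background of 2.06%) and 336 lower (3.38%), and nothing is read from these counts. The split rests on the rule's own values, so the calls cannot serve as a test, and they only picked the genes named. The largest differences picked were Tgm2, Arl4c, Nrk and Celf4 (higher with Pgr) and Tmem176a, Vit, Tmem176b and Apoe (lower). Tgm2 was at 529, 533, 145, 1.20 and 45.6 CPM with Pgr and at 149, 94.0, 58.9, 5.63 and 22.8 CPM without, from puberty to involution, so its value with Pgr was above that without in each library but lactation. Nrk, a kinase gene, and Celf4 were likewise higher with Pgr in each library but lactation. There they were lower with Pgr (3.61 against 5.28 and 4.81 against 6.69 CPM). Apoe, the lipid carrier apolipoprotein E, was at 72.5, 169, 128, 184 and 92.0 CPM with Pgr and at 660, 571, 358, 349 and 305 CPM without, in stage order, so the lowest value without Pgr lay above the highest with it.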

How the data were processed

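The authors deposited raw counts of UMIs per gene and barcode for 13 libraries (10x 3′ chemistry), made with Cell Ranger 6.1.2 on mm10 per the submitters' processing notes. The 5 stage and 4 hormone libraries were compared, and the 4 libraries of the tumour model were not. Members and gene lists were chosen with earlier results of these data known. Counts were summed per library over members and over remaining fibroblasts and tested with edgeR 4.0.16 (R 4.3.3, limma 3.58.1) by the quasi-likelihood test, with TMM scaling, filterByExpr, the library as a block and a threshold of 0.05 on the Benjamini-Hochberg adjusted p. Sums under 20 cells were left out. A gene was called higher or lower past that threshold. Mitochondrial genes and the genes of the rule and gate were left out of the tests.

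Each test rests on the spread of the difference between libraries, which may in part be technical. The genes named are the 12 largest differences in each direction that passed against all and against depth-matched cells, had 1 sign in 5 of 5 libraries and averaged at least 20 CPM in the higher group, leaving out Gm, Rik, Rp, mt- and Hist genes, with the 4 largest in each direction for the Pgr comparison, the 6 largest ratios between stages among listed genes with at least 30 UMIs in the highest stage, up to 4 examples from each of 27 lists, and the rule genes with Ccn5. Other genes named, such as Esr1, Ghr, Tgm2 and Il1r1, were chosen after their values were seen. Depth matching used 10 depth classes. Neighbours and Leiden clusters (scanpy 1.11.5 with the igraph form of Leiden, Python 3.11.15) used up to 1000 variable genes, 30 components, 20 neighbours and resolution 0.8. Doublets were kept, and Scrublet at 0.8% per 1000 barcodes was an alternative, as were DESeq2 1.42.0, other scaling, other gates and no gene filter. On simulated stage counts of 13878 genes all changed genes of both fold sizes were recovered (100%), and 4.31% of calls were false. On simulated hormone counts of 14505 genes recovery was 100% and 5.66% of calls were false, above the threshold. For the Pgr comparison (9891 genes) 96% were recovered at a log2 change of 1 and 100% at 2, with 4.39% false. The simulated counts had 1 fixed spread for all genes and the same change in every library. Only genes above a minimum level were changed, by log2 1 or 2 in either direction. The rates therefore do not cover scarcer genes, smaller changes or changes that differ between libraries. Positions are from GENCODE M21 (GRCm38). Genes with near copies or shared symbols, such as C4b and the Ly6 and Akr1c families, may share reads and are uncertain. Some listed genes count in their lists and are not reported here by name.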

Additional observations from a re-analysis of the deposited data

Results flagged for a closer look

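The same rule gave members in 4 libraries that entered no comparison, from Pdgfra-GFP MMTV-Wnt1 mice of mixed C57BL/6 and FVB background and 45 weeks (replicate 1) or 17 weeks old (replicate 2), in which GFP+ cells were sorted from hyperplastic glands and tumours of the same mouse. Members were 6.73% and 11.4% of the fibroblasts in the hyperplasia libraries and 1.19% and 0.472% in the tumour libraries, and both tumour libraries were below both hyperplasia libraries. The remaining fibroblasts had medians of 10797 and 20235.5 UMIs in the tumour libraries and of 8475 and 7828 in hyperplasia, and the part of depth in these shares was not tested. The sort, strain and age differ from those of the stage libraries and cannot be told apart from the tissue, and no test was made.

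A pair of named genes had median ratios of opposite sign under the hormone treatments. The median log2 ratio of members over remaining cells for Arl4c, a small GTPase, was 1.04 in the placebo libraries and −0.12 in the MPA+E libraries. Each library shared the sign of its group, but the MPA+E levels were close. There Arl4c was at 11.0 and 20.5 CPM in members against 12.7 and 21.1 CPM in remaining cells. For Hsd11b1, which regenerates active glucocorticoid, it was −1.36 with placebo and 0.28 with MPA+E, again the same in both libraries of each group. These differences between treatments were not tested.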

How the results depend on the processing

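For the results given between groups of libraries, no paired analysis was possible because no result comes from a test between groups that share replicate numbers. This follows from the tests chosen and is not a limit of the design. Hyperplasia and tumour could have been paired by mouse, and such a test was not run. Placebo and MPA+E, and hyperplasia and tumour of the same mice, were given side by side with no test, while the tests of members against remaining cells were paired by library. The count of 984 higher genes over the stages became 605 when members needed all 3 genes, 571 after thinning, 360 within cells that carried Pi16 and Dpp4, and 588 to 980 with 1 library left out, lowest without pregnancy. The count of 1231 lower genes became 427 within Pi16 and Dpp4 cells and 843 to 1144 with 1 library left out. In the hormone libraries counts of 2737 higher and 2624 lower genes became 712 and 869 within Pi16 and Dpp4 cells, and 1749 to 2323 and 1841 to 2293 with 1 library left out, the fewest higher without MPA+E library 1. For members with Pgr, from whose calls nothing is read, a count of 204 higher genes became 91 with DESeq2 and 357 without a gene filter. It became 133 to 207 with 1 library left out, lowest without puberty. The count of 336 lower genes became 196 with DESeq2 and 234 to 326 with 1 left out. The setting with Pi16 and Dpp4 was chosen after the data were seen, and tests fewer cells and genes. The cause of the other moves was not tested.

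The share of members moved to 2.59, 3.27, 4.12, 1.94 and 1.22% after thinning, to 2.67, 2.64, 1.46, 0.355 and 0.608% with all 3 genes required, to 12% in puberty and 9.47% in pregnancy at a mitochondrial limit of 5%, and to 11.3% in the adult without marked doublets. With all 3 genes required the highest share was thus in puberty, close to the adult, and the lowest in lactation. Stages have 1 library each, so depth and library cannot be told apart from stage.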

Other observations

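The genes given here were chosen after their values were seen. C4b, complement component 4B, was at 346, 485, 633, 417 and 538 CPM from puberty to involution in members, and at 200, 213, 234, 121 and 288 CPM in remaining fibroblasts, a log2 difference of 1.25 ± 0.12 (edgeR quasi-likelihood, adjusted p = 6.14e-05), and the groups did not overlap. C3, the central complement component, differed by 0.79 ± 0.14 (edgeR quasi-likelihood, adjusted p = 3.56e-03), while Hc was lower as given above. Plac8 was at 1640, 1656, 1757, 583 and 1246 CPM in members against 652, 645, 675, 234 and 651 CPM, a difference of 1.29, and Ntrk2, the receptor of the neurotrophin BDNF, differed by 1.01.

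Isg15, an interferon-induced gene, was at 543, 651, 374, 88.5 and 185 CPM in members against 343, 315, 226, 73.8 and 153 CPM (0.64, edgeR quasi-likelihood, adjusted p = 3.00e-03). Irf7, a transcription factor of the interferon response, differed by 0.69, whereas Ifit1 (0.10, adjusted p = 0.560) and Ifit3 (0.45, adjusted p = 0.130) did not pass. In the stage libraries the interferon-led clusters of puberty and adult held 18.5% and 17.4% of the members. Members were 28.96% and 40.65% of their cells, against 11.3% and 12.1% of all fibroblasts there. In lactation and involution Cxcl9-led clusters, with Rsad2 or Ifi44 among the leading genes, held 5.95% and 5.21% of the members. Members were 2.36% and 2.48% of those cells, against 5.96% and 5.25% of all fibroblasts there. Most leading genes of these clusters were not those of the interferon-led ones, so no difference between stages is read from them. Puberty and adult clusters with Fabp4, Cd36 and Cxcl9 among their leading genes were also low in members, at 6.54% and 4.45% of their cells.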
